A study of Marchantia polymorpha with 78 samples.

Results

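MpUGT31 (Mp7g01270), MpUGT32 (Mp7g18730) and MpGH31.8 (Mp8g10240) are 3 of the 19355 genes measured in thalli of the liverwort Marchantia polymorpha. They were followed across darkness and 4 lights. They were chosen by identifier with earlier results of these data in view, for their levels in early light. Among named genes, MpGH31.8 had the largest called rise and MpUGT31 the rise of rank 3 at 180 min of red light. MpGH31.8 and MpUGT32 ranked 2 and 5 among genes lower in blue than in red light at that time. Differences from darkness at 30, 60 and 180 min of white, blue and red light are therefore given below as descriptions, with no test. All 3 genes passed the filter on low values, which kept 13054 genes.

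The plants were wild-type Tak-1, a male laboratory line, grown from gemmae on agar medium with sucrose. White light stayed on for the first 8 days, at 23 °C, and 24 h of darkness followed, at the end of which the time-zero group was taken. The other groups then received 30 min, 60 min, 180 min, 12 h or 24 h of darkness, white light (50 to 60 µmol m-2 s-1), blue light (430 nm, 30 to 40), red light (660 nm, 80 to 90) or far-red light (730 nm, 30 to 40). Each of the 26 groups had 3 libraries of poly(A) RNA, each from 3 pooled plants, 78 in all. The lights differed in intensity as well as in colour, and these cannot be told apart. Replicates shared a plate, per the labels, so an effect of the plate and 1 of the treatment cannot be told apart either.

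UDP-dependent glycosyltransferases (UGTs) move a sugar from an activated nucleotide sugar onto small acceptor molecules such as flavonoids, other phenolics, hormones and terpenoids. In plants, the added sugar commonly makes the acceptor more soluble and allows its storage in the vacuole. Glycoside hydrolase family 31 (GH31) holds enzymes that cut sugars from glycans, among them alpha-glucosidases and alpha-xylosidases, which act in starch and glycan turnover and on xyloglucan of the plant cell wall. The names come from the symbols alone. The acceptor or substrate of these 3 enzymes is not given in the sources used here.

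Values are TPM, a transcript level scaled to gene length and to the same sum in every library, and the sequencing depth behind them is unknown. Libraries of a group were alike across genes. The mean correlation of a library with its group mates was lowest for replicate 3 of darkness at 60 min (0.9889) and had a median of 0.9956. MpRBCS, the small subunit of the carbon-fixing enzyme of green tissue, lay between 63.8 and 318.8 TPM in all 78 libraries. In whole thalli, fewer cells of a type and less RNA per cell cannot be told apart. A gene is called changed below when limma's adjusted p, over all 13054 genes, was under 0.05 and the difference on the log2(TPM + 1) scale was at least 1 in size. All comparisons with darkness at 1 time share the same 3 dark libraries.

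MpUGT31 stood at a low, even level without light and was many times higher from the first hour of white, blue and red light. At time zero its 3 libraries held 11.6, 8.96 and 10.1 TPM. Over the 15 dark libraries it lay between 9.36 and 12.4 TPM, and no difference of darkness from time zero was called at any time (log2 0.01 to 0.14, adjusted p 0.19 to 1.00). The dark libraries overlapped those of time zero at every time. The early tests of darkness against time zero use the dark libraries of the comparisons that chose the genes. They are therefore not independent of the choice.

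At 30 min the MpUGT31 libraries held 33.4, 35.5 and 35.7 TPM in white light, 30.1, 23.4 and 29.8 in blue light, and 27.6, 34.6 and 33.9 in red light. At 60 min they held 120.1, 124 and 120.0 TPM in white light, 100.7, 106 and 104 in blue light, and 119, 115 and 115 in red light, against 10.0, 9.81 and 10.9 in darkness. All light libraries at both times lay above all dark ones. Between 60 and 180 min the lights parted: white light gave 102, 102 and 107 TPM at 180 min, blue light 134, 130.4 and 129.5, and red light 183, 191 and 196. The libraries of these 3 lights did not overlap at 180 min, with the order red, blue, white. As log2 differences from darkness (SE 0.08), the 60 min values were 3.45 in white, 3.22 in blue and 3.39 in red light, and those of 180 min were 3.09, 3.42 and 3.96.

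MpUGT31 in far-red light, whose own libraries did not choose the genes, was tested at every time. For all 3 genes, the far-red tests at 30, 60 and 180 min use the dark libraries of the comparisons that chose the genes. These early far-red tests are therefore not independent of the choice. It held 9.55, 11.6 and 10.2 TPM at 30 min, within the dark range (log2 −0.06, adjusted p = 0.63). At 60 min it held 20.6, 17.1 and 16.8 TPM, above every dark library, and the difference was short of the fold threshold (log2 0.77, limma adjusted p = 2.1e-11). At 180 min it held 38.6, 38.4 and 35.4 TPM against 11.2, 11.7 and 11.0 in darkness and was called higher (log2 1.64, SE 0.08, adjusted p = 3.1e-25). It was the only 1 of the 3 genes called in far-red light at 180 min, where 1.96% of all tested genes were called; at 30 and 60 min 0 of the 3 were called, against 0.291% and 2.32% of all genes.

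MpUGT31 stayed high in all 4 lights at 12 and 24 h. At 12 h its libraries held 59.9, 61.1 and 65.7 TPM in white light, 55.2, 55.5 and 52.8 in blue, 81.4, 76.2 and 78.7 in red and 31.2, 27.8 and 30.4 in far-red light, against 12.4, 11.1 and 9.80 in darkness. The rises were 2.39 in white, 2.20 in blue, 2.72 in red and 1.35 in far-red light (log2, SE 0.08; limma adjusted p from 1.7e-38 to 1.6e-21). At 24 h the group means were 50.8 ± 2.65 TPM in white, 44.0 ± 4.47 in blue, 61.0 ± 2.69 in red and 33.0 ± 1.03 in far-red light, against 10.4 ± 1.13 in darkness (SD, n = 3). The rises were 2.19, 1.98, 2.45 and 1.58, and every light library again lay above every dark one.

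The late fraction of the MpUGT31 maximum differed by light as a description. Relative to the highest group of each light, the 24 h mean was 41.8% in white, 33.6% in blue and 32.1% in red light, whose maxima came at 60, 180 and 180 min. In far-red light it was 88.1% of the 180 min maximum, itself 3.31 times darkness. From 12 to 24 h no change of MpUGT31 was called: the differences were −0.29 in white, −0.31 in blue, −0.36 in red and 0.14 in far-red light (adjusted p = 0.0043, 0.0022, 0.00025 and 0.23), where 1.59%, 2.79%, 1.78% and 1.68% of all genes were called.

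**Figure D1:**
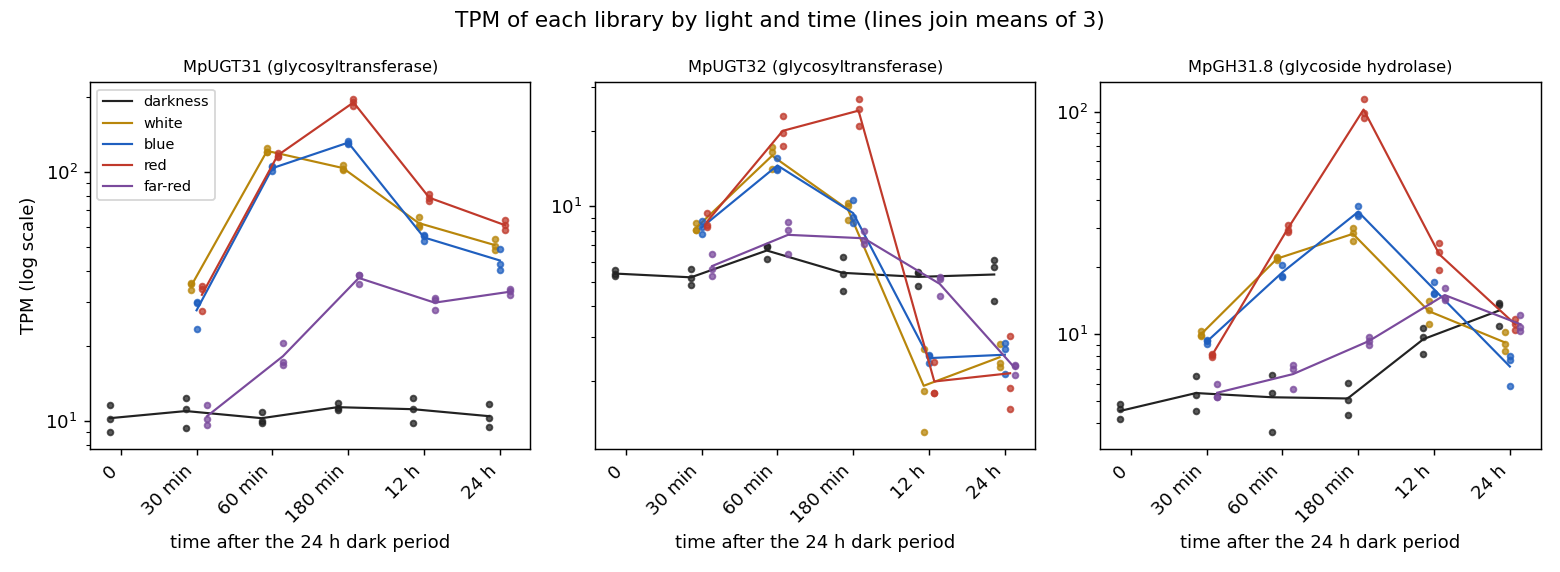
TPM (log scale) of MpUGT31, MpUGT32 and MpGH31.8 in each library against time after the dark period, coloured by light, with lines through the means of 3 libraries. MpUGT31 stayed above darkness to 24 h in every light, MpUGT32 lay below darkness at 24 h in every light, and MpGH31.8 returned to 7.17 to 11.1 TPM at 24 h, against 12.8 in darkness.

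MpUGT32, of the same enzyme class, was less abundant and was above darkness in early white, blue and red light but below it in these lights at 12 and 24 h. Its dark level moved little. It held 5.35, 5.57 and 5.25 TPM at time zero and between 4.17 and 6.93 in the 15 dark libraries, with no call against time zero (log2 −0.04 to 0.26, adjusted p 0.22 to 1.00). At 60 min its dark libraries (6.86, 6.18 and 6.93 TPM) lay above all 3 of time zero (log2 0.26), and at the other times they overlapped. The early tests again used the dark libraries of the choice. Of all tested genes 0%, 0.214% and 0.207% were called against time zero at 30, 60 and 180 min of darkness.

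At 60 min the MpUGT32 libraries held 14.0, 17.2 and 16.5 TPM in white light, 13.9, 14.1 and 15.6 in blue light and 23.0, 19.6 and 17.4 in red light, against 6.86, 6.18 and 6.93 in darkness. At 180 min they held 10.0, 8.83 and 10.3 TPM in white light, 8.57, 9.03 and 10.5 in blue light and 21.0, 26.8 and 24.5 in red light, against 6.30, 4.61 and 5.36 in darkness. The white and blue means were thus lower at 180 than at 60 min, while the red mean was 20.0 ± 2.83 at 60 min and 24.1 ± 2.93 TPM at 180 min, with red libraries of the times overlapping. The log2 differences from darkness (SE 0.13) at 30, 60 and 180 min were 0.57, 1.14 and 0.74 in white, 0.57, 1.02 and 0.70 in blue, and 0.64, 1.45 and 1.97 in red light.

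By 12 h MpUGT32 was below darkness in white, blue and red light. Its libraries held 1.82, 1.25 and 2.69 TPM in white, 2.53, 2.54 and 2.36 in blue and 1.80, 2.39 and 1.80 in red light, against 5.46, 5.42 and 4.80 in darkness, with no overlap. It fell by 1.12 on the log2 scale in white light (SE 0.13, limma adjusted p = 9.6e-12) and by 1.06 in red light (adjusted p = 5.7e-11). In blue light the difference was −0.84 (adjusted p = 4.2e-08), short of the fold threshold. In far-red light its 5.10, 4.39 and 5.22 TPM overlapped darkness (−0.08, adjusted p = 0.64).

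At 24 h the low level of MpUGT32 was also seen in far-red light. Its libraries held 2.29, 2.83 and 2.36 TPM in white, 2.69, 2.13 and 2.84 in blue, 1.55, 1.88 and 3.03 in red and 2.30, 2.32 and 2.12 in far-red light, against 4.17, 5.74 and 6.11 in darkness. No light library reached the lowest dark one. The fall was called in red light (log2 −1.02, SE 0.13, adjusted p = 1.5e-10). The differences in white (−0.85), blue (−0.83) and far-red light (−0.95) had adjusted p of 2.7e-08, 5.6e-08 and 2.5e-09 and missed the fold threshold. These values lie near that threshold and their calls moved with it. The call in red light at 24 h ended without replicate 1 or 2 of red light or replicate 2 or 3 of darkness (−0.97 to −0.88), and that in white light at 12 h without replicate 2 of white light (−0.95). With a pseudocount of 5 in place of 1, all 3 calls ended (−0.57 to −0.53).

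In far-red light MpUGT32 was also tested at the early times, against the dark libraries used in the choice. Its far-red libraries overlapped darkness at 30 and 60 min and lay above it at 180 min (7.05, 7.34 and 7.95 TPM), with log2 differences of 0.13, 0.18 and 0.40 (adjusted p = 0.48, 0.26 and 0.0089), none called. Between 12 and 24 h of far-red light the difference was −0.86 (adjusted p = 2.2e-07, not called). In white, blue and red light the same step was 0.29, 0.03 and 0.05.

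MpGH31.8 differed most between lights at 180 min, and it was the 1 gene of the 3 whose dark level rose. It held 4.14, 4.60 and 4.84 TPM at time zero, 8.20, 10.6 and 9.73 at 12 h of darkness and 10.9, 13.9 and 13.6 at 24 h of darkness. The 24 h rise was called (log2 1.31, SE 0.12, limma adjusted p = 4.5e-15), as were 3.13% of all genes in this comparison. At 12 h the difference was 0.92 (adjusted p = 7.2e-10), where 2.02% of all genes and 0 of the 3 were called, though without replicate 1 of darkness at 12 h it was called (1.02), and at 30, 60 and 180 min it was 0.14 to 0.21. The differences at 30, 60 and 180 min use the dark libraries of the choice and are not independent of it. With a pseudocount of 5 the 24 h call ended (0.90). Differences of light from darkness at 12 and 24 h are thus taken against a rising reference for this gene.

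At 60 min the MpGH31.8 libraries held 22.0, 22.2 and 21.5 TPM in white, 18.1, 18.4 and 20.6 in blue and 31.0, 29.6 and 28.9 in red light, against 6.58, 3.63 and 5.44 in darkness. At 180 min they held 28.4, 26.3 and 30.2 TPM in white, 34.9, 34.0 and 37.7 in blue and 114, 99.2 and 93.6 in red light, against 5.08, 6.04 and 4.34 in darkness. The lowest red library at 180 min lay above the highest library of any other light at that time. The log2 differences from darkness at 30, 60 and 180 min (SE 0.12) were 0.79, 1.91 and 2.26 in white, 0.68, 1.71 and 2.58 in blue and 0.50, 2.34 and 4.07 in red light.

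The red maximum of MpGH31.8 was 102.3 ± 10.6 TPM, 19.9 times darkness, and did not last. At 12 h red light held 23.4, 25.7 and 19.5 TPM, and the rise over darkness was called (log2 1.18, adjusted p = 3.8e-14), but not with a pseudocount of 5 (0.94). White light (11.1, 14.2 and 12.9 TPM; log2 0.38), blue light (15.1, 17.3 and 15.4; 0.69) and far-red light (16.2, 14.6 and 14.2; 0.61) lay above darkness without a call. At 24 h the means were 9.21 ± 0.930 TPM in white, 7.17 ± 1.16 in blue, 11.1 ± 0.638 in red and 11.1 ± 0.936 in far-red light, against 12.8 ± 1.61 in darkness. The log2 differences were −0.43, −0.76, −0.18 and −0.19 (adjusted p = 0.00071, 3.5e-08, 0.14 and 0.16), none called; white and blue libraries lay below all dark ones, while red and far-red libraries overlapped them.

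From 12 to 24 h MpGH31.8 fell in blue light by 1.06 on the log2 scale (SE 0.12, limma adjusted p = 1.5e-11), among 2.79% of all genes called there. The call ended without replicate 2 of blue light at 24 h (−0.94) and with a pseudocount of 5 (−0.79). In red light the difference was −0.97 (adjusted p = 2.3e-10), which was called with a pseudocount of 0.5 and without replicate 3 of either time (−1.01 and −1.08). White and far-red light had differences of −0.42 and −0.40 (limma adjusted p = 0.0025 and 0.0060), without overlap of libraries. Neither was called, where 1.59% and 1.68% of all genes were. In darkness the difference was 0.39, where 0.322% of all genes and 0 of the 3 were called. In early far-red light no change of MpGH31.8 was called. It held 5.23, 5.95 and 5.21 TPM at 30 min, 7.27, 6.96 and 5.66 at 60 min and 8.99, 9.68 and 9.31 at 180 min (log2 0.01, 0.32 and 0.76; adjusted p = 0.95, 0.018 and 2.2e-07), where the last lay above all dark libraries.

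Counting over the late comparisons, at 12 h limma called 2 of the 3 genes in white light, 1 in blue, 3 in red and 1 in far-red light, where 23.4%, 19.6%, 24.3% and 3.26% of all tested genes were called. At 24 h it called 1, 1, 2 and 1 of the 3 genes, where 26.2%, 23.6%, 29.6% and 8.96% of all genes were called. Counts of 3 genes against backgrounds of this size show nothing particular to them. In the early comparisons of white, blue and red light, which chose the genes, the 3 light libraries lay above the 3 dark ones for all 3 genes at all 3 times. The share of all genes without such overlap was not computed, so nothing is read from this. The share of all genes called by adjusted p and fold is another measure. It was 2.93%, 9.74% and 19.2% at 30, 60 and 180 min of white light. In blue light it was 5.12%, 10.7% and 17.7%, and in red light 4.76%, 12.3% and 18.8%.

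**Figure D2:**
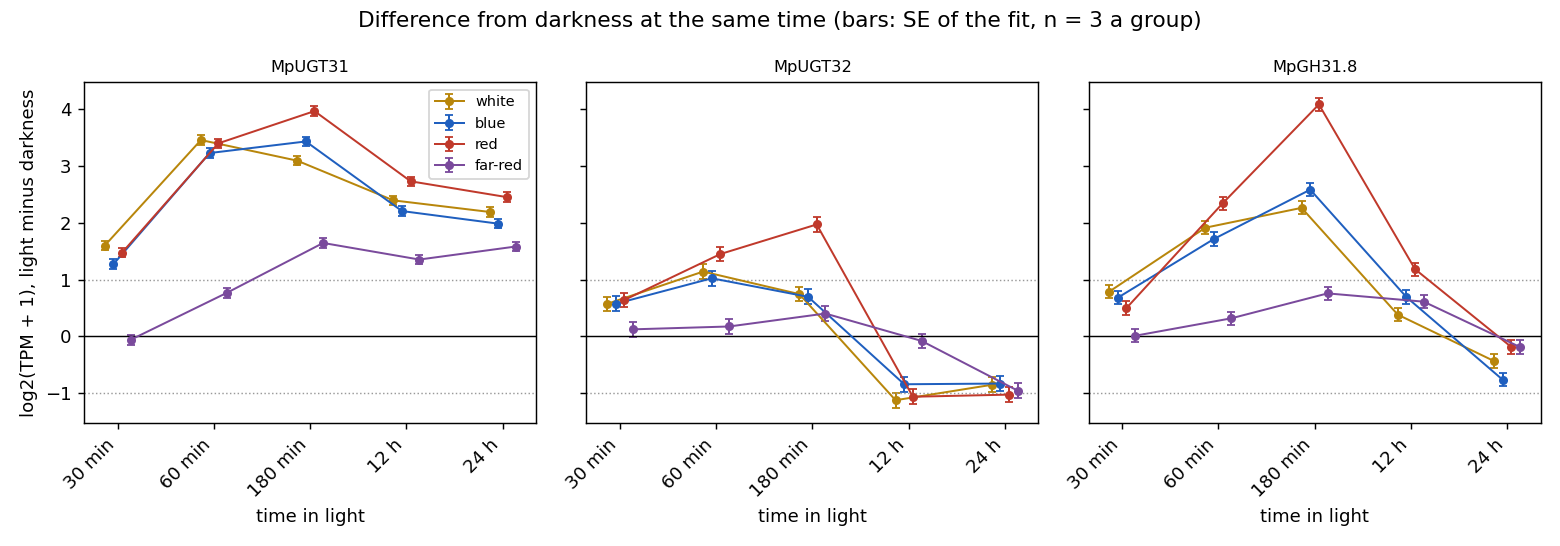
Difference from darkness at the same time on the log2(TPM + 1) scale (points; bars show the SE of the fit, 3 libraries a group) for each gene and light, with dotted lines at the fold threshold of 1 in either direction. At 180 min red light reached 3.96, 1.97 and 4.07 for MpUGT31, MpUGT32 and MpGH31.8, and MpUGT32 crossed to negative values by 12 h in white, blue and red light.

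The lights were also set against each other. At 60 min the values are given as a description, with no test, since the early levels in white, blue and red light chose the genes. MpUGT31 stood at 117 ± 2.45 TPM in red light and 18.1 ± 2.09 in far-red light, MpGH31.8 at 29.8 ± 1.06 and 6.63 ± 0.854, and MpUGT32 at 20.0 ± 2.83 and 7.69 ± 1.14, with no overlap of libraries. The log2 differences were 2.62, 2.02 and 1.27, and those of blue minus far-red light were 2.45 for MpUGT31, 1.39 for MpGH31.8 and 0.85 for MpUGT32. Of all genes 5.62% were called between red and far-red and 4.78% between blue and far-red light at 60 min, and nothing is read from these shares here.

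At 12 h red exceeded far-red light for MpUGT31 (1.37, adjusted p = 5.9e-23), 1 of the 3 genes, where 19% of all genes were called. MpUGT32 went the other way at that time, at 2.00 ± 0.343 TPM in red and 4.90 ± 0.450 in far-red light (−0.98, adjusted p = 6.8e-10, not called). It was called with a pseudocount of 0.5 (−1.12) and without replicate 2 of either light (−1.07 and −1.05). At 24 h none of the 3 was called between red and far-red light, where 22.6% of all genes were: the differences were 0.87 for MpUGT31, −0.07 for MpUGT32 and 0.00 for MpGH31.8 (adjusted p = 2.0e-14, 0.63 and 1.00). Between blue and far-red light none was called at 12 and 24 h, where 14.7% and 14.2% of all genes were, with 0.85 and 0.40 for MpUGT31, −0.76 and 0.13 for MpUGT32, and 0.08 and −0.57 for MpGH31.8.

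Among white, blue and red light, none of the differences tested at 12 and 24 h was called, and those of 60 min are given as values. Of all genes, 0.0613%, 1.03% and 1.91% were called between white and blue light at 60 min, 12 h and 24 h, 0.214%, 0.506% and 0.896% between white and red light, and 0.153%, 1.02% and 3.28% between blue and red light. The values nearest to a call were those of MpGH31.8: white minus red light at 12 h was −0.80 (adjusted p = 2.5e-07) and blue minus red light at 24 h −0.57 (adjusted p = 3.4e-05). At 60 min its blue minus red difference was −0.62. MpUGT31 at 60 min differed by 0.06 between white and red light and by −0.17 between blue and red light, and its blue minus red difference was −0.52 at 12 h and −0.47 at 24 h (adjusted p = 8.6e-07 and 4.2e-06). At 180 min, given as values since this time chose the genes, blue minus red light was −0.53 for MpUGT31, −1.27 for MpUGT32 and −1.50 for MpGH31.8, and white minus red light was −0.87, −1.22 and −1.82.

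Ordered by level, all 3 genes had their highest group mean at 180 min of red light and differed in their lowest groups. MpUGT31 was lowest in far-red light at 30 min, darkness and time zero, MpUGT32 in white and red light at 12 h, red light at 24 h and far-red light at 24 h, and MpGH31.8 at time zero and in early darkness. The highest group mean was 18.6, 12.5 and 22.6 times the lowest for MpUGT31, MpUGT32 and MpGH31.8. Of the 25 pairs of neighbours in the order of group means, 10, 5 and 8 had libraries that did not overlap. Neighbours in such an order are close by construction, and no such counts were made over all genes. Nothing is read from them. The median coefficient of variation within a group was 4.85%, 9.71% and 7.77%.

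Across the 26 group means the MpUGT31 and MpGH31.8 courses had a Pearson r of 0.85 on the log2(TPM + 1) scale, MpUGT32 and MpGH31.8 0.47, and MpUGT31 and MpUGT32 0.32. By r, MpGH31.8 ranked 122 among the 2237 named genes for MpUGT31, and MpUGT31 ranked 23 for MpGH31.8. MpUGT32 ranked 1043 for MpUGT31 and 660 for MpGH31.8. MpUGT31 and MpGH31.8 both ranked high at 180 min of red light when chosen, so their r is not independent of the choice. These points share libraries and time courses, and r is a description here. Among 2237 named genes, the courses most like that of MpUGT31 were those of MpTRIHELIX19 (Mp7g16910, r 0.97), a trihelix factor gene by name, MpFAE1 (Mp1g06080, 0.96), by name a fatty acid elongase, MpABCF1 (Mp2g16180, 0.96), an ABC-family protein gene, and MpRH8 (Mp7g14570, 0.95), by name an RNA helicase. For MpUGT32 they were MpHDM2 (Mp1g09090, 0.91), the fatty acid desaturase gene MpFAD3 (Mp2g24510, 0.89), the plastid terminal oxidase gene MpPTOXa (Mp3g12150, 0.88) and the glycoside hydrolase gene MpGH1.3 (Mp2g17840, 0.88). For MpGH31.8 they were the glycoside hydrolase gene MpGH16.10 (Mp2g18360, 0.93), MpE2F (Mp1g02890, 0.92), by name a factor of S-phase entry, MpMurD (Mp7g01520, 0.89) and MpC3H5 (Mp1g09040, 0.89).

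Of 37 UGT genes found by symbol in the table, 30 were tested. At 60 min, of the 28 other than MpUGT31 and MpUGT32, 2 rose in white, 1 in blue and 2 in red light, with 0 falls. Of all tested genes 7.41%, 8.56% and 9.89% rose and 2.33%, 2.11% and 2.41% fell in these comparisons. At an unadjusted p under 0.05, 17, 20 and 20 of the 28 were higher and 3, 3 and 4 lower. The share of all genes at that unadjusted p was not computed, so nothing is read from these counts. The medians of the 28 were 0.38, 0.47 and 0.40 (log2), beside 0.14, 0.18 and 0.20 over all genes. MpUGT11 rose by 1.84 in white, 1.98 in blue and 1.79 in red light (20.0, 22.0 and 19.1 TPM against 5.02). MpUGT4 rose by 1.02 in white and 1.00 in red light (67.9 and 67.2 TPM against 32.9), at the edge of the fold threshold. In far-red light at 60 min limma called 0 of the 28, beside 2.05% of all genes higher and 0.276% lower. At an unadjusted p under 0.05, 10 were higher and 2 lower, again without a share over all genes.

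At 24 h the counts among the UGT genes other than MpUGT31 and MpUGT32 were larger. In white light 12 rose and 1 fell, in blue light 8 and 1, in red light 12 and 1, and 7 and 0 in far-red light, of 28. With a pseudocount of 5, and MpUGT31 and MpUGT32 included, the called UGT genes were 9 in place of 14 in white light and 4 in place of 8 in far-red light. Calls over all genes were then 2373 in place of 3423 in white and 662 in place of 1169 in far-red light. With the pseudocount of 1, 14.5%, 13.5%, 16% and 5.98% of all tested genes rose and 11.7%, 10.1%, 13.6% and 2.98% fell. The medians of the 28 were 0.77, 0.64, 0.82 and 0.49, beside 0.04, 0.03, 0.01 and 0.12 over all genes. MpUGT35 rose by 2.43 in white and 2.80 in blue light (33.8 and 43.8 TPM against 5.46), MpUGT5 by 2.32 in white and 2.59 in red light (4.58 and 5.75 TPM against 0.125), MpUGT16 by 2.25 in blue light (10.9 TPM against 1.54) and MpUGT25 by 2.85 in red light (18.1 TPM against 1.68). MpUGT23 was the 1 gene that fell in all 3 of these lights, by 1.41, 1.58 and 1.24 (43.0, 38.1 and 48.4 TPM against 116).

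As a share of the summed TPM of the UGT genes in the table, MpUGT31 held 2.12% ± 0.0740 in darkness at 180 min (SD, n = 3). At 180 min of red light it held 21.3% ± 0.447. It was the most abundant of them in that red group and number 14 in darkness at the same time. MpUGT31 ranked high in that red group when chosen, so this share is a description. At 24 h of red light it held 7.68% ± 0.429 and was number 3.

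**Figure D3:**
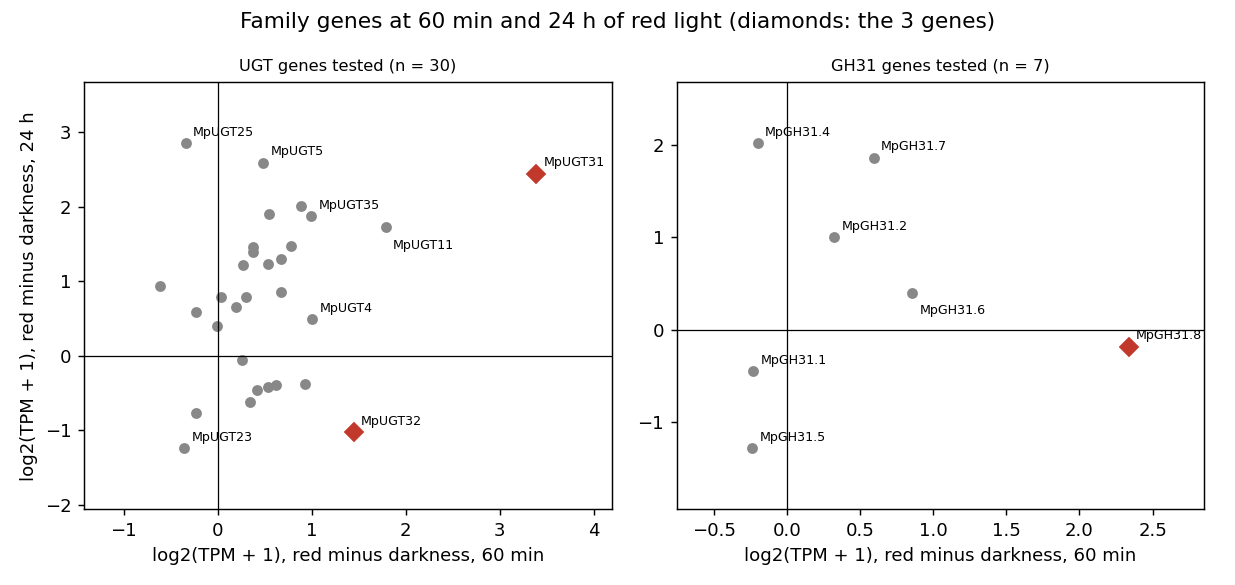
Difference of red light from darkness at 24 h (y axis) against that at 60 min (x axis), both on the log2(TPM + 1) scale, for the tested UGT and GH31 genes (diamonds mark the 3 genes, lines mark 0 on each axis). MpUGT31 lies high on both axes (3.39 and 2.45), MpUGT32 at 1.45 and −1.02, and MpGH31.8 at 2.34 and −0.18.

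All 7 GH31 genes of the list were tested. At 60 min limma called 0 of the 6 other than MpGH31.8 in white, blue, red or far-red light. Of all tested genes 7.41%, 8.56%, 9.89% and 2.05% rose and 2.33%, 2.11%, 2.41% and 0.276% fell, so 0 of 6 shows nothing particular. At an unadjusted p under 0.05, 3, 3, 3 and 4 were higher and 2, 2, 1 and 0 lower. No share of all genes was computed for that rule, and nothing is read from these counts. At 24 h 3 rose and 1 fell in white light, 2 and 1 in blue light, 3 and 1 in red light, with 2 and 0 in far-red light. Of all tested genes 14.5%, 13.5%, 16% and 5.98% rose and 11.7%, 10.1%, 13.6% and 2.98% fell there. The medians of the 6 were 0.82, 0.52, 0.70 and 0.50, beside 0.04, 0.03, 0.01 and 0.12 over all genes. With a pseudocount of 5 the called GH31 genes, MpGH31.8 included, were 1 in place of 4 in red light and 1 in place of 2 in far-red light. Calls over all genes were then 2707 in place of 3863 in red and 662 in place of 1169 in far-red light. MpGH31.4 rose by 2.23 in white, 2.23 in blue and 2.02 in red light (7.34, 7.31 and 6.19 TPM against 0.776), and MpGH31.5 fell by 1.29, 1.30 and 1.29 (7.57, 7.49 and 7.60 TPM against 20.0). MpGH31.8 held 5.93% ± 0.970 of the summed GH31 TPM in darkness at 180 min. At 180 min of red light, where it ranked high when chosen, it held 47.3% ± 2.92, the highest of the 7.

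MpGH31.7 (Mp8g10230) is the gene next to MpGH31.8 in the reference annotation, and their spans do not overlap. The courses had an r of 0.49 over the 26 groups. In red light at 180 min it was at 23.7 ± 1.17 TPM against 8.45 in darkness, while MpGH31.8 stood at 102.3 against 5.15. At 24 h MpGH31.7 rose by 2.35 in white, 1.99 in blue and 1.86 in red light (SE 0.10, limma adjusted p from 1.5e-30 to 1.9e-25), at 27.0, 20.6 and 18.9 TPM against 4.46 ± 0.542 in darkness. In far-red light it also rose, by 1.69 (limma adjusted p = 1.3e-22), at 16.5 TPM. Its dark mean had been 10.5 ± 0.888 TPM at time zero, where that of MpGH31.8 went from 4.53 to 12.8 TPM over the same 24 h.

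**Figure D4:**
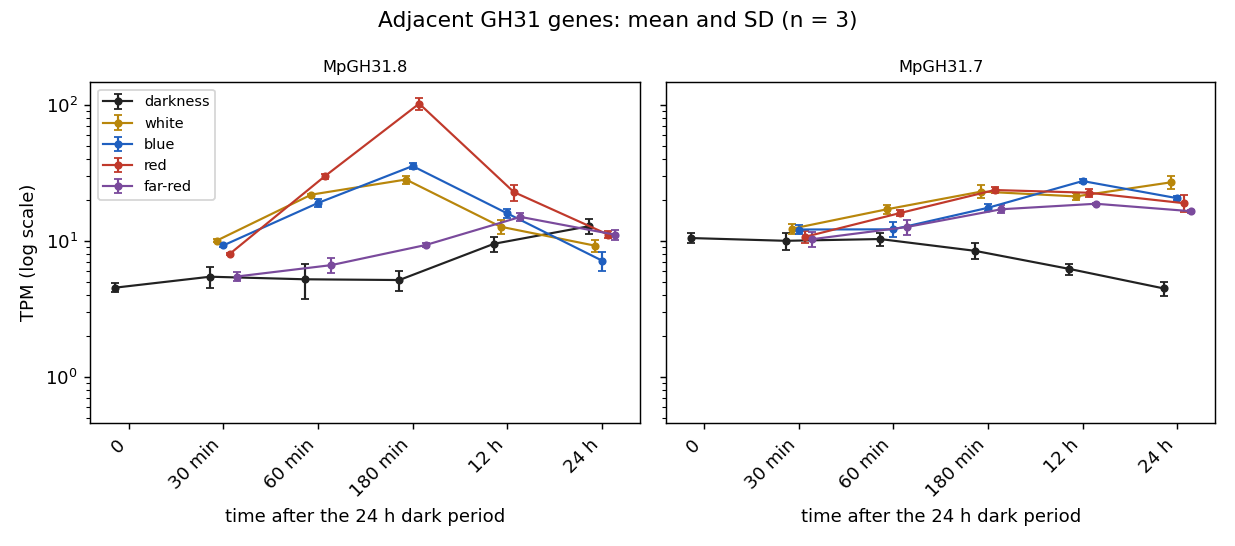
TPM (log scale) of the adjacent genes MpGH31.8 and MpGH31.7 against time after the dark period, as mean and SD of 3 libraries per group, coloured by light. In darkness MpGH31.8 went from 4.53 to 12.8 TPM and MpGH31.7 from 10.5 to 4.46 TPM. In red light MpGH31.8 went from 102.3 TPM at 180 min to 22.9 TPM at 12 h. MpGH31.7 stood at 23.7 and 22.6 TPM there, with overlapping libraries, and had its highest mean at 12 h of blue light (27.6 TPM).

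Flavonoid synthesis supplies 1 class of molecules that UGTs are known to act on. Of 37 tested genes of that list, from phenylalanine ammonia-lyase to chalcone synthase and later enzymes, 17 rose at 60 min of white light, 17 of blue and 19 of red light, and 0 fell, where 7.41%, 8.56% and 9.89% of all genes rose and 2.33%, 2.11% and 2.41% fell. Their medians were 0.92, 0.80 and 1.02, beside 0.14, 0.18 and 0.20 over all genes. The rises in white light included genes with close identifiers, Mp4g14100 to Mp4g14200 (MpPKS/CHS10 to MpPKS/CHS15, MpPAL6 and MpPAL7). Such genes need not be independent of each other, so nothing about a pathway is read from these counts. The chalcone synthase family genes MpPKS/CHS14 and MpPKS/CHS21 led in each light, rising by 3.86 and 3.86 in white, 3.85 and 4.08 in blue and 4.37 and 4.54 in red light. In far-red light at 60 min limma called 0, where 2.05% of all genes rose and 0.276% fell. At an unadjusted p under 0.05, 17 were higher and 5 lower, and no share of all genes was computed for that rule. At 24 h it had 6 rises and 6 falls in white, 7 and 6 in blue and 10 and 5 in red light, where 14.5%, 13.5% and 16% of all genes rose and 11.7%, 10.1% and 13.6% fell.

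Every difference from darkness at 60 min uses replicate 3 of darkness, whose mean correlation with its group mates was the lowest (0.9889). Those of replicates 1 and 2 of that group were 0.9919 and 0.9911, also under the median of 0.9956. Replicate 3 was left out as a check. Without it the log2 differences of MpUGT31 were 3.49, 3.26, 3.43 and 0.81 in white, blue, red and far-red light, those of MpUGT32 1.17, 1.05, 1.47 and 0.20, and those of MpGH31.8 1.95, 1.75, 2.38 and 0.36, and no call of the 3 genes in far-red light was gained. The UGT genes called besides MpUGT31 and MpUGT32 were then 4 in place of 2 in white and in red light, and GH31 genes besides MpGH31.8 1 in place of 0 in red light. Calls over all genes rose as well, to 1502 from 1271 in white, 1670 from 1393 in blue, 1940 from 1606 in red and 481 from 303 in far-red light. Leaving out each library of the 2 groups in turn moved MpGH31.8 between 1.71 and 2.07 in white, 1.51 and 1.87 in blue and 2.14 and 2.50 in red light.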

How the data were processed

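The authors deposited TPM per gene and library for 19355 genes in 78 libraries. Per the submitters' processing notes, STAR was used; which version, build, annotation, quantification or filter is not given in the sources used here. Each column sums to 1000000, and a deposited table of group means equals the means of the 3 replicates within 1e-06. TPM keeps no depth, so no counting interval or floor is given. Genes were named by matching identifier numbers to locus tags of assembly MpTak2_v7.1 (17384 matched, 3091 with a symbol); the order and spans of neighbouring genes were read from that table, and no coordinates are printed.

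The filter asked for 1 TPM in at least 3 libraries (13054 genes). In R 4.3.3, limma 3.58.1 fitted log2(TPM + 1) over all libraries with a mean for each group, an intensity trend and Benjamini-Hochberg adjustment per comparison. Folds on this scale are understated for low genes. The fit was tested on simulated data. Replicates are labelled biological, and p-values measure the spread between these libraries. Members and lists were chosen with earlier results of these data known, so differences between lights at 60 min, although fitted with the others, are given as values with no test.

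Besides the 3 members, the text names the 4 most alike named genes per member (highest group mean at least 5 TPM). It also names up to 2 rises and 2 falls of the UGT and GH31 lists at 60 min and 24 h of white, blue and red light, and up to 2 rises of the flavonoid list at 60 min. MpGH31.7 is also named as the neighbour. Alternatives were another pseudocount, no filter, TMM factors, a replicate block, the groups of the comparison only, no trend and leaving out each library.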

Additional observations from a re-analysis of the deposited data

Results flagged for a closer look

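The effect of light against darkness differed between lights for MpUGT31 at 12 h, where red minus far-red light was 1.37 (log2) by limma's test of the difference itself. The differences from far-red light at 60 min use libraries of early red or blue light, whose levels chose the genes. They are given as values with no test and support nothing. Red minus far-red light was 2.62 for MpUGT31, 1.27 for MpUGT32 and 2.02 for MpGH31.8. Blue minus far-red light was 2.45 for MpUGT31, 0.85 for MpUGT32 and 1.39 for MpGH31.8. In each case all 3 libraries of the higher light lay above all 3 of far-red light.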

How the results depend on the processing

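No called value among the 108 fitted differences changed sign under any alternative run. The 108 include the differences between lights at 60 min, which are given with no test. Of uncalled differences 5 changed sign with TMM factors and 30 of 648 values did when leaving out 1 library. No filter, no intensity trend and the groups of the comparison alone changed 0 calls. A pseudocount of 5 ended the calls of MpUGT32 in white (−0.57) and red light (−0.55) at 12 h and in red light at 24 h (−0.53). It also ended those of MpGH31.8 in red light at 12 h (0.94), in 24 h of darkness against time zero (0.90) and from 12 to 24 h of blue light (−0.79). The untested difference of MpUGT32 between red and far-red light at 60 min was then 0.98. The fall of MpUGT32 in far-red light at 24 h was called with a pseudocount of 0.5 (−1.07) and with TMM factors (−1.05). Leaving out 1 library moved MpUGT32 between −1.30 and −0.95 in white light at 12 h, −1.21 and −0.88 in red light at 24 h and −1.09 and −0.86 in far-red light at 24 h. Same-numbered libraries did not deviate together (mean r −0.0016, from −0.372 to 0.337), so the numbers pair nothing. With a replicate block no call was gained or lost, and no value shifted in this balanced design. The median log2 difference over all genes passed 0.1 at 30 and 60 min of white, blue and red light (0.13 to 0.20) and at 60 min (0.12) and 24 h (0.12) of far-red light. With TMM factors MpUGT32 at 60 min was at 0.97 in white and 0.79 in blue light. At 30 min MpGH31.8 was then at 0.27 in red light in place of 0.50 and 0.45 in blue in place of 0.68, and MpUGT32 at 0.34 in blue in place of 0.57 and 0.41 in red in place of 0.64. UGT genes called at 60 min of white light were then 2 in place of 4, as with a pseudocount of 5. Over all genes, the 1271 calls of that comparison became 1183 with TMM factors and 814 with a pseudocount of 5. The cause of these moves was not tested. Depth is unknown, which limits values near or under 2 TPM, such as MpUGT32 in late light and MpUGT5 and MpGH31.4 in darkness.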
